A study of Homo sapiens with 12 samples.

Results

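The genes described here make phosphatidic acid, turn it into phosphatidylinositol, and carry phosphatidylinositol between membranes. They were chosen by transcript identifier from a list of 10 genes: PLD1, PLD2 (ENST00000263088), DGKA, DGKE (ENST00000284061), DGKQ (ENST00000273814), CDS1 (ENST00000295887), CDS2 (ENST00000460006), CDIPT (ENST00000219789), PITPNM1 (ENST00000356404) and PITPNB (ENST00000335272). The identifiers given for PLD1 (ENST00000351298) and DGKA (ENST00000331886) were listed in no library, so these genes have no value here. The other 8 transcripts, of 18338 listed in any library, were listed in all 12 libraries and passed the filter on low counts in both assays. The symbols come with that list of identifiers and were not checked, since no table used here pairs transcript identifiers with symbols.

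HEK293T, a transformed line that derives from human embryonic kidney and is labelled wild type, was sampled at 0, 60 and 360 min of GSK-A1, which blocks the phosphatidylinositol 4-kinase PI4KA. At each time, ribosome-protected fragments (RPF, pieces of mRNA that a ribosome covered during nuclease digestion) and polyA mRNA were each sequenced in 2 libraries. All libraries carry the same treatment label, so 0 min is the reference only as far as the titles give the time. Nothing says whether the replicates are separate cultures, so the p-values measure only the spread between these libraries, which may be technical. Marker genes of the cell line were not examined, because the identifiers come without names.

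Phosphatidic acid is formed from phosphatidylcholine by phospholipase D and from diacylglycerol by diacylglycerol kinases. CDP-diacylglycerol synthases then convert it to CDP-diacylglycerol, from which CDIPT makes phosphatidylinositol, the precursor of phosphatidylinositol 4-phosphate. Phosphatidylinositol transfer proteins move the product from the endoplasmic reticulum to membranes where it is phosphorylated. The time course asks which transcripts change in level or in translation once PI4KA is blocked.

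Library totals ran from 546547 to 1165740 counts in RPF and from 429026 to 1002695 counts in mRNA, with mRNA 360 min replicate 1 the shallowest. Levels are given in CPM, counts scaled to the effective library total. This is the total over transcripts that passed the filter on low counts in that assay, multiplied by its TMM factor. CPM values are compared within a gene and not between genes, since no transcript lengths were used. The 8 transcripts rested on few reads: 7 to 405 counts per library in RPF and 2 to 59 in mRNA.

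**Figure D1:**
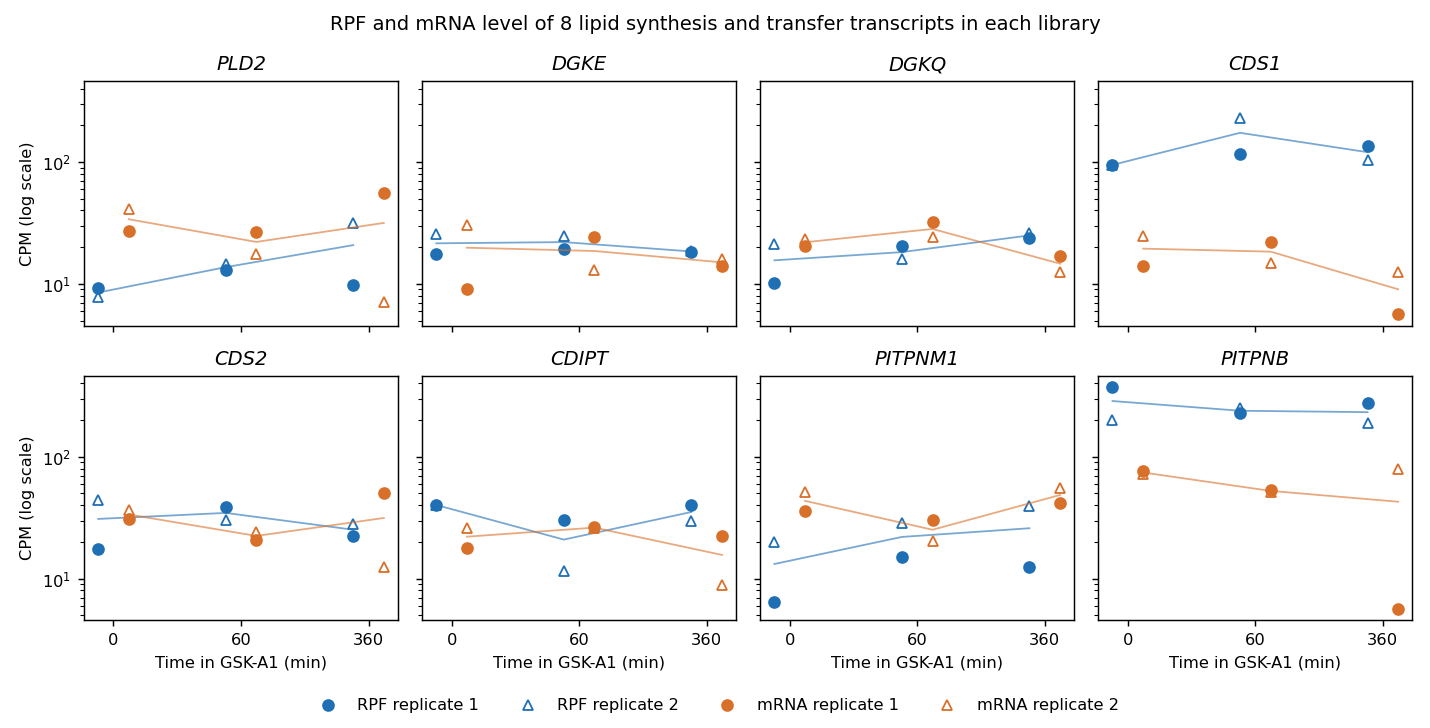
Level of each of the 8 transcripts in every library, in CPM on a log axis, against time in GSK-A1; blue is RPF, orange is mRNA, filled circles are replicate 1, open triangles replicate 2, and lines join the means. All RPF points lie above all mRNA points for CDS1 and PITPNB, while the assays overlap for the other 6.

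The clearest difference lay between the assays rather than between times. CDS1 and PITPNB had more footprints for their mRNA level than most transcripts. PITPNM1 and PLD2 had fewer, with RPF and mRNA libraries that overlapped. The ratio of RPF to mRNA was taken over the 3 times, with 6 libraries of each assay, and tested with edgeR's quasi-likelihood test. It passed a Benjamini-Hochberg adjusted p-value of 0.05 for 3 of the 8 transcripts, 2 higher and 1 lower. Among all 8632 transcripts tested, 41.1% passed, 24.7% higher and 16.4% lower, so 3 of 8 is near the background. DESeq2 called 4 of the 8, PLD2 being the fourth (adjusted p = 0.0401). All 6 RPF libraries lay above all 6 mRNA libraries for 2 of the 8, against 13.1% of all transcripts, and below for 0 of the 8, against 6.09%. The median log2 ratio was 0.13 for the 8 transcripts and 0.10 for all tested.

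CDS1, a CDP-diacylglycerol synthase of the endoplasmic reticulum, had the highest ratio. In replicates 1 and 2, its footprints came to 94.99 and 94.13 CPM in the 0 min libraries, 116 and 231 CPM in those of 60 min, and 136 and 105 CPM in those of 360 min. Its mRNA came to 14.1 and 24.8 CPM, then 21.9 and 14.8 CPM, then 5.61 and 12.4 CPM. The lowest RPF library stood well above the highest mRNA library. The log2 ratio was 3.03 (SE 0.284), or 8.19-fold, and edgeR's adjusted p was 5.30e-06. It exceeded the ratio of 99.2% of all transcripts tested. Each time taken alone gave a positive log2 ratio that passed: 2.28 (SE 0.464, adjusted p = 0.0112) for 0 min, 3.23 (SE 0.461, adjusted p = 0.00195) for 60 min and 3.59 (SE 0.546, adjusted p = 0.00114) for 360 min. In the same order, 11.1%, 13.3% and 14.6% of all transcripts passed. The mRNA side rested on 2 to 19 counts per library and the RPF side on 56 to 160.

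PITPNB, a phosphatidylinositol transfer protein that also carries phosphatidylcholine, came next. Its footprints came to 373 and 199 CPM in the 0 min libraries, 227 and 250 CPM in those of 60 min, and 275 and 189 CPM in those of 360 min. Its mRNA came to 75.8 and 72.8 CPM, then 53.1 and 51.8 CPM. In the 360 min libraries the mRNA stood at 5.61 CPM in replicate 1 and 79.9 CPM in replicate 2, from 2 and 45 counts. These replicates differed by more than any other pair of mRNA replicates for this gene. The log2 ratio was 2.15 (SE 0.360), or 4.44-fold, edgeR's adjusted p was 0.00036, and it exceeded that of 97.6% of transcripts. It was 1.82 without mRNA 360 min replicate 1 and 3.11 without replicate 2, and passed the threshold both times. For 0 min alone it was 1.94 (SE 0.609) and missed the threshold (edgeR adjusted p = 0.0534).

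PITPNM1, known as Nir2, exchanges phosphatidylinositol and phosphatidic acid where the endoplasmic reticulum touches the plasma membrane. It was the transcript called in the other direction. Its footprints came to 6.46 and 19.9 CPM in the 0 min libraries, 15.1 and 28.9 CPM in those of 60 min, and 12.6 and 39.3 CPM in those of 360 min. Its mRNA came to 36.0 and 51.0 CPM, then 30.0 and 20.4 CPM, then 42.1 and 55.1 CPM. The assays overlapped, since RPF replicate 2 of 60 and of 360 min exceeded the lowest mRNA library. The log2 ratio was −0.98 (SE 0.350), or 0.506-fold, and edgeR's adjusted p was 0.0362. The call was lost without replicate 1 of RPF 0 min (adjusted p = 0.114), RPF 60 min (0.112), RPF 360 min (0.112) or mRNA 60 min (0.0901). It was also lost without replicate 2 of mRNA 0 min (0.0730) or mRNA 360 min (0.0704).

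PLD2, a phospholipase D of the plasma membrane, had 7.75 to 31.8 CPM in RPF. Its mRNA came to 27.0 and 40.8 CPM in the 0 min libraries, 26.6 and 17.6 CPM in those of 60 min, and 56.1 and 7.11 CPM in those of 360 min. The assays overlapped, and the 360 min mRNA replicates were the farthest apart. The log2 ratio was −1.08 (SE 0.436), which missed the threshold (edgeR adjusted p = 0.0595). It passed without RPF 360 min replicate 2 (0.0252) or mRNA 360 min replicate 2 (0.00547), and was −0.45 without mRNA 360 min replicate 1. The remaining ratios did not pass. They were 0.59 (SE 0.312) for CDIPT, the phosphatidylinositol synthase, 0.20 (SE 0.342) for DGKE, 0.07 (SE 0.341) for CDS2 and −0.12 (SE 0.293) for DGKQ. DGKE and DGKQ are diacylglycerol kinases, and DGKE prefers arachidonoyl-containing diacylglycerol. Neighbouring ratios from CDIPT down to DGKQ differed by less than the sum of their SEs, as did those of PITPNM1 and PLD2. Whether both assays were counted over the same region of the transcript is not given in the sources used here, and a ratio can be compared between genes only within that limit.

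**Figure D2:**
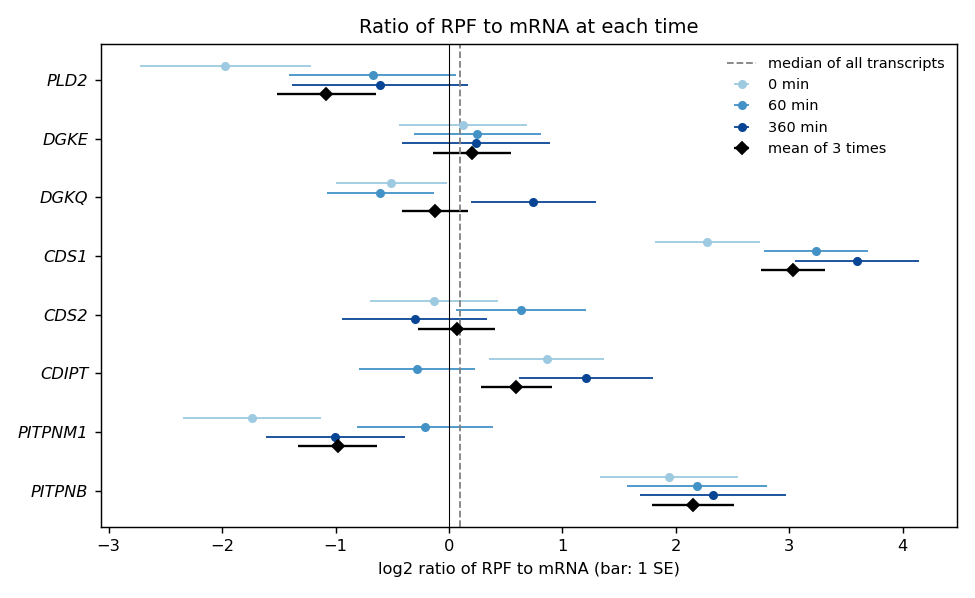
Fitted log2 ratio of RPF to mRNA at 0, 60 and 360 min (circles) and over the 3 times (black diamonds), with bars of 1 SE; the dashed line is the median of all transcripts tested, 0.10. CDS1 and PITPNB lie to the right at every time. PLD2 and PITPNM1 lie to the left, but the bars of PLD2 at 60 and 360 min and of PITPNM1 at 60 min cross 0.

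Shares of counts within pairs of related genes can be read without any scaling of libraries. Of the reads on CDS1 and CDS2, which catalyse the same reaction, CDS1 took 68% to 88.4% in the 6 RPF libraries and 10% to 51.4% in the 6 mRNA libraries. The lowest RPF share was 85 of 125 reads in 0 min replicate 2 (exact 95% Clopper-Pearson interval 59.1% to 76.1%). The highest mRNA share was 19 of 37 reads in 60 min replicate 1 (34.4% to 68.1%), so these intervals overlapped although the libraries did not. In mRNA of 360 min, CDS1 had 2 of 20 reads (1.23% to 31.7%) in replicate 1 and 7 of 14 (23.0% to 77.0%) in replicate 2. PITPNB took 82.8% to 98.3% of the reads on PITPNB and PITPNM1 in RPF and 11.8% to 71.8% in mRNA. Apart from mRNA 360 min replicate 1 (2 of 17 reads), every mRNA share of PITPNB was at least 58.8%. For the kinases DGKE and DGKQ, the share of DGKE was 41.7% to 63.3% in RPF and 30.4% to 56.8% in mRNA, and the assays overlapped. The pairs were formed after the counts were seen and are given without a test. The shares use the same reads as the ratios above and are not independent of them. The intervals cover counting error only, not the spread between libraries. They treat reads as independent molecules, which reads made by PCR are not, so they may be too narrow.

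**Figure D3:**
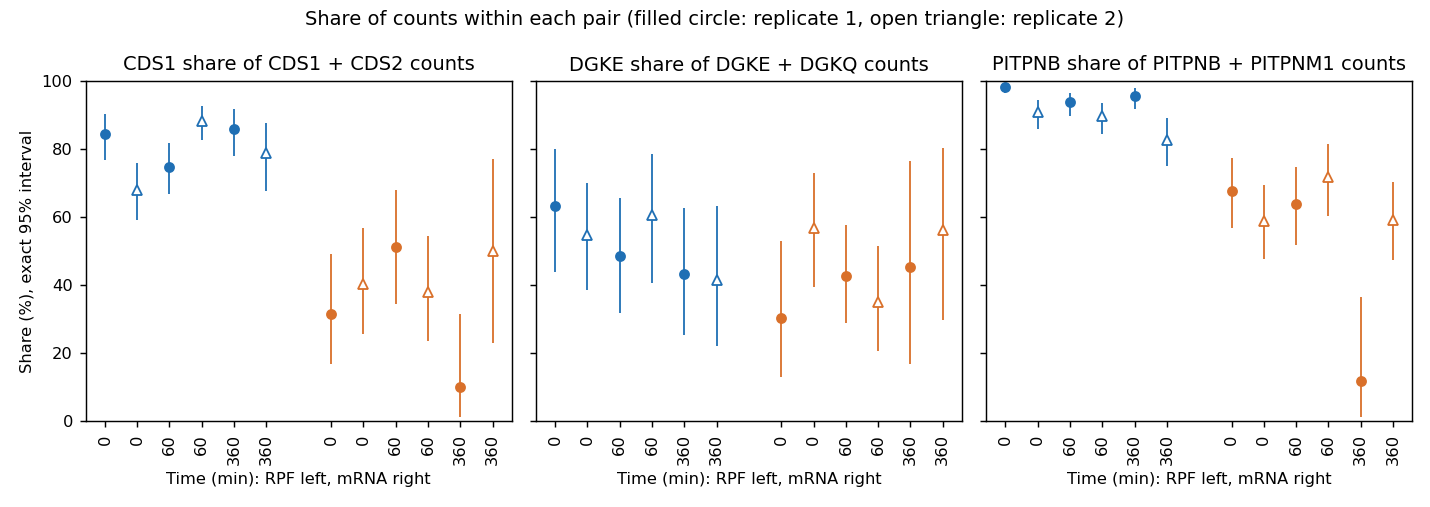
Share of counts taken by the first gene of each pair in every library, in percent, with exact 95% intervals; RPF is blue and on the left, mRNA orange and on the right, with the time in min on the axis. CDS1 and PITPNB take larger shares in every RPF library than in any mRNA library, and DGKE does not.

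None of the 8 transcripts passed the test between times. In RPF, edgeR called 0 of the 8 in each of the 3 comparisons of times, as it called 0% of all 9653 transcripts tested. By unadjusted p under 0.05 it gave 1 of 8 between 0 and 60 min, CDS1, against 2.31% of all transcripts. It gave 0 of 8 between 0 and 360 min, against 3.91%, and 0 of 8 between 60 and 360 min, against 7.8%. DESeq2 gave 0 of 8 by unadjusted p each time. It called 0 of 8 in both comparisons with 0 min and 0 of 2 between 60 and 360 min, where it gave the other 6 no adjusted p. With the replicate number as a block, edgeR called 1, 2 and 7 of all transcripts in the 3 comparisons, and 0 of the 8. Both 60 min libraries lay above both of 0 min for 2 of the 8 (PLD2 and CDS1), against 15.2% of all transcripts, and below for 1 (CDIPT), against 16%. Both 360 min libraries lay above both of 0 min for 3 (PLD2, DGKQ and CDS1), against 13.6%, and below for 0, against 13.8%. They lay above both of 60 min for 1 (DGKQ), against 17.5%, and below for 2 (DGKE and CDS2), against 18%. The median log2 difference from 0 min was 0.22 at 60 min and 0.08 at 360 min for the 8, where all transcripts had −0.01 and 0.02.

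CDS1 footprints gave the smallest p of the 8 at 60 min. Their mean was 94.6 ± 0.606 CPM (SD, n = 2) in the 0 min libraries, 173 ± 81.4 CPM in those of 60 min and 120 ± 21.9 CPM in those of 360 min. Every later library stood above both of 0 min, and 60 min replicate 2 was the highest. The log2 difference of 60 from 0 min was 0.87 (SE 0.401). EdgeR's unadjusted p was 0.0453 and its adjusted p 0.999. The difference was 0.31 without 60 min replicate 2 and 1.28 without 60 min replicate 1. That of 360 from 0 min was 0.35 (SE 0.406), smaller than its SE.

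CDIPT had its lowest footprint level in the 60 min libraries. It came to 40.6 and 39.9 CPM in the 0 min libraries, 30.3 and 11.5 CPM in those of 60 min, from 28 and 8 counts, and 40.6 and 29.9 CPM in those of 360 min. Both 60 min libraries were under both of 0 min, and those of 60 and 360 min overlapped. The log2 difference of 60 from 0 min was −0.90 (SE 0.478, edgeR adjusted p = 0.999), and that of 360 from 60 min was 0.72 (SE 0.498, edgeR adjusted p = 0.750). Without 60 min replicate 2 they were −0.39 and 0.18, and without 60 min replicate 1 they were −1.79 and 1.60. The size of both differences thus rested on which 60 min library was used.

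PLD2 had the largest RPF difference of the 8 at 360 min. Its footprints came to 9.22 and 7.75 CPM in the 0 min libraries, 13.0 and 14.4 CPM in those of 60 min, and 9.79 and 31.8 CPM in those of 360 min, from 7 to 17 counts per library. The 360 min replicates were far apart, and only replicate 2 stood clear of the earlier times. The log2 difference of 360 from 0 min was 1.23 (SE 0.692, edgeR adjusted p = 0.9999). It was 0.19 without 360 min replicate 2 and 1.84 without 360 min replicate 1. Footprints of the others ranged from 17.5 to 25.5 CPM for DGKE, from 10.1 to 26.2 CPM for DGKQ and from 17.5 to 44.3 CPM for CDS2.

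In mRNA, edgeR called 0 of the 8 transcripts in each comparison of times, as it called 0% of all 9693 tested. By unadjusted p under 0.05 it gave 0 of 8 each time, against 1.37% of all transcripts between 0 and 60 min, 8.92% between 0 and 360 min and 10.3% between 60 and 360 min. DESeq2 gave 0 of 8 by unadjusted p each time. It called 0 of 8 between 0 and 60 min and 0 of 1 between 60 and 360 min, and gave none of the 8 an adjusted p between 0 and 360 min. The difference from 0 min was positive for 2 of the 8 at 60 min, against 48.3% of all transcripts, and for 1 of the 8 at 360 min, against 48.2%. The medians of the 8 were −0.29 and −0.47 on the log2 scale, where all transcripts had −0.02 and −0.03. Without mRNA 360 min replicate 2, the 360 min difference was 0.77 for PLD2, 0.62 for CDS2, 0.07 for CDIPT and negative for the others. The count of positive differences thus depended on single libraries. Both 60 min libraries lay under both of 0 min for 4 (PLD2, CDS2, PITPNM1 and PITPNB), against 12.3% of all transcripts, and above for 1 (DGKQ), against 13.4%. Both 360 min libraries lay under both of 0 min for 2 (DGKQ and CDS1), against 19.1%, and above for 0, against 19.8%. They lay under both of 60 min for 3 (DGKQ, CDS1 and CDIPT), against 19.6%, and above for 1 (PITPNM1), against 20.7%.

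PITPNM1 gave the smallest mRNA p of the 8 in both comparisons with 60 min. Its mean mRNA level was 43.5 ± 10.6 CPM (SD, n = 2) in the 0 min libraries, 25.2 ± 6.84 CPM in those of 60 min and 48.6 ± 9.18 CPM in those of 360 min. The 60 min libraries were the lowest and overlapped with neither other time. The log2 difference of 60 from 0 min was −0.79 (SE 0.431, edgeR adjusted p = 0.9999), and that of 360 from 60 min was 0.96 (SE 0.442, edgeR adjusted p = 0.497). On leaving out a library they ranged from −1.06 to −0.50 and from 0.70 to 1.24.

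CDS1 mRNA averaged 19.4 ± 7.51 CPM (SD, n = 2) in the 0 min libraries, 18.4 ± 5.05 CPM in those of 60 min and 9.02 ± 4.83 CPM in those of 360 min, the last from 9 counts together. The log2 difference of 360 from 0 min was −1.01 (SE 0.678, edgeR adjusted p = 0.655), and ranged from −1.71 to −0.58 on leaving out a library. For PITPNB mRNA it was −0.71 (SE 0.736), 0.13 without mRNA 360 min replicate 1 and −3.65 without replicate 2, so its direction rested on replicate 1.

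**Figure D4:**
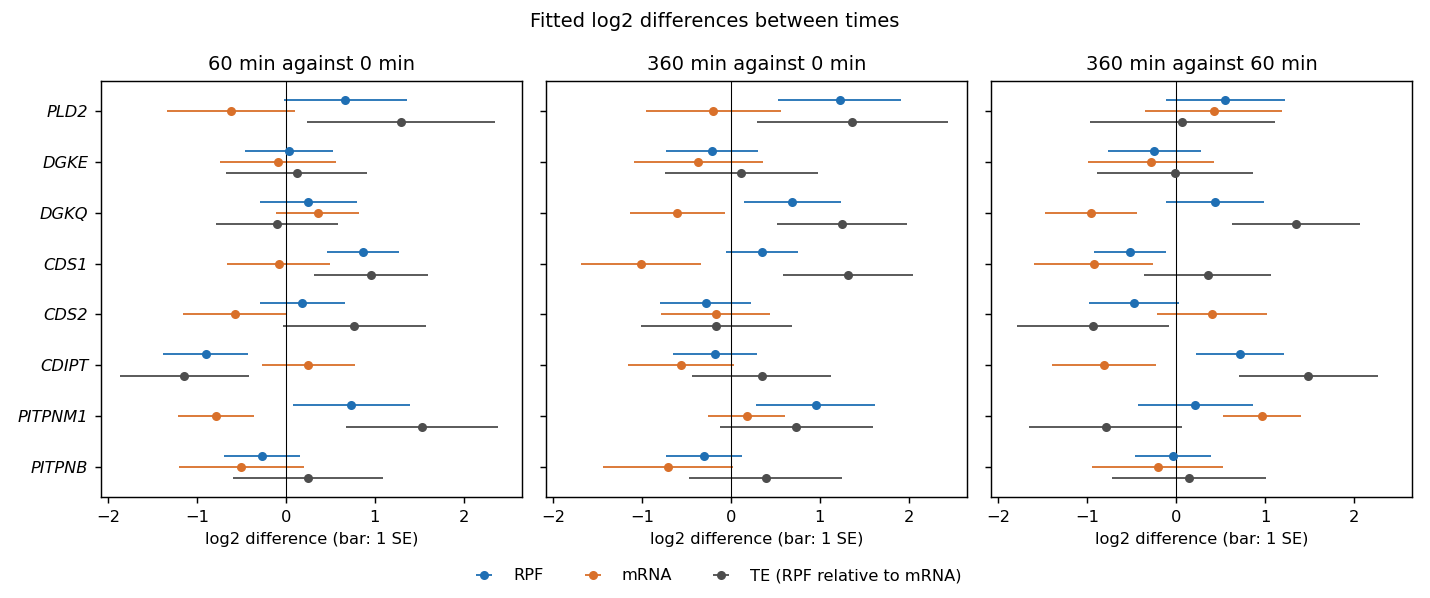
Fitted log2 difference of each transcript between times, with bars of 1 SE, for RPF (blue), mRNA (orange) and TE, the difference between them (grey). Differences range from −1.14 to 1.53 over the 3 comparisons, and none passed an adjusted p-value of 0.05.

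Translational efficiency (TE) is the ratio of RPF to mRNA, and its change over time was tested as an assay-by-time term fitted to all 12 libraries. EdgeR called 0 of the 8 transcripts in each of the 3 comparisons, as it called 0% of all 8632 tested. DESeq2 called 0 of 8 in both comparisons with 0 min and 0 of 1 between 60 and 360 min, where it gave the other 7 no adjusted p. By unadjusted p under 0.05 both tools gave 0 of 8, where edgeR gave 1.75% of all transcripts between 0 and 60 min, 5.66% between 0 and 360 min and 4.69% between 60 and 360 min. The difference of 360 from 0 min was positive for 7 of the 8, against 50.6% of all transcripts. Its median was 0.56 for the 8 and 0.01 for all, and the SEs of the 8 ran from 0.732 to 1.08. Some signs rested on 1 library. The difference was −0.31 for CDIPT without mRNA 360 min replicate 2, and −0.97 for DGKE without mRNA 0 min replicate 2. It was −0.25 for PITPNM1 without RPF 360 min replicate 2, and −0.41 for PITPNB without mRNA 360 min replicate 1. For CDS2, the negative one, it was 1.13 without mRNA 360 min replicate 1. PLD2, DGKQ and CDS1 stayed positive, which for DGKQ and CDS1 follows from the library order given next. Both RPF libraries lay on one side of the earlier time and both mRNA libraries on the other for 1 of the 8 between 0 and 60 min (PLD2), against 4.21% of all transcripts. The same held for 2 between 0 and 360 min (DGKQ and CDS1), against 3.63%, and for 1 between 60 and 360 min (DGKQ), against 3.31%.

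The smallest p of each TE comparison fell to PITPNM1, CDS1 and CDIPT among the 8. For PITPNM1 the log2 difference in TE of 60 from 0 min was 1.53 (SE 0.855, edgeR adjusted p = 0.99998). It ran from 0.91 without RPF 0 min replicate 1 to 2.53 without RPF 0 min replicate 2. For CDS1 that of 360 from 0 min was 1.32 (SE 0.732, edgeR adjusted p = 0.861). It ran from 0.89 without mRNA 0 min replicate 2 to 2.01 without mRNA 360 min replicate 2. Its ratio of mean CPM was 4.86, 9.43 and 13.3 over the 3 times. For CDIPT that of 360 from 60 min was 1.49 (SE 0.786, edgeR adjusted p = 0.948). It ran from 0.84 without mRNA 360 min replicate 2 to 2.36 without RPF 60 min replicate 1, and its ratio of mean CPM was 1.82, 0.798 and 2.25. The comparisons of 60 and of 360 min with 0 min share the 0 min libraries. Those of 360 min with 0 and with 60 min share the 360 min libraries. Values of comparisons that share libraries are not independent.

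A further 34 genes of phosphatidic acid and phosphatidylinositol metabolism were listed but not analysed here, since their transcript identifiers are not paired with symbols.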

How the data were processed

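The deposited files hold raw counts for each Ensembl transcript, 1 file per library, as whole numbers of at least 1. The submitters' processing notes name cutadapt 2.8, Bowtie 1.2.3 and STAR 2.7.10a. Genome build, annotation, counted region and use of strand are not given in the sources used here, so reads shared with overlapping or near-identical transcripts are uncertain. Transcripts that a file did not list counted as 0 in it. Groups, times and replicate numbers came from the titles.

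The analysis used edgeR 4.0.16 in R 4.3.3: filterByExpr and TMM scaling within each assay, estimateDisp, glmQLFit and glmQLFTest. RPF and mRNA were fitted separately with time as the factor. TE and the ratio of RPF to mRNA were contrasts in a joint fit of all 12 libraries. Benjamini-Hochberg adjustment ran over all transcripts tested, with 0.05 as the threshold. The SE is the log2 difference divided by the square root of F. The pipeline was tested on simulated data. Between 0 and 360 min it recovered a log2 change of 1 for 0.5% of changed transcripts in RPF and 0% in mRNA and TE. It recovered a log2 change of 2 for 44%, 17.5% and 10% in RPF, mRNA and TE. Changes of these sizes between times could thus go uncalled. For the ratio of RPF to mRNA over the 3 times, it recovered a log2 value of 1 for 29.5%, 2 for 77.5% and 3 for 65%. Ratios of these sizes could go uncalled too. The percentages are shares of all changed transcripts and not values for the counts of the members. Replicates differed by a chi-square of at least 8.61 per degree of freedom, so none was counted as a duplicate. Same-numbered libraries deviated together between RPF times (correlations of 0.34 to 0.36) and not consistently between mRNA times (−0.481 to 0.404). The numbers come from the titles, which do not say what they share, so the fits have no block and the blocked RPF counts are given beside the others.

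All 8 listed members are named. Full values are given for those with an adjusted p-value under 0.05 and for the member with the smallest p-value in each comparison of times. Further values of CDS1, CDIPT, PITPNB, PLD2 and DGKQ were added after the values were seen. The members and lists were chosen with earlier results of these data known. Alternatives were other scalings, DESeq2 1.42.0, other filters, the replicate block, the compared libraries alone and leaving out each library. The ratio at single times was added after the data were seen.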

Additional observations from a re-analysis of the deposited data

Results flagged for a closer look

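For 3 transcripts, both RPF libraries lay on one side of an earlier time and both mRNA libraries on the other side. By comparison, this held for 1 of the 8 between 0 and 60 min, against 4.21% of all transcripts. It held for 2 between 0 and 360 min, against 3.63%, and for 1 between 60 and 360 min, against 3.31%. The share of all transcripts that met it in any comparison was not computed. The assay-by-time term of edgeR tests that contrast, and it passed an adjusted p-value of 0.05 for none of the 3 transcripts.

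PLD2 footprints were higher in the 60 min libraries (13.0 and 14.4 CPM) than in those of 0 min (9.22 and 7.75 CPM), while its mRNA went from 27.0 and 40.8 CPM to 26.6 and 17.6 CPM. The log2 difference in TE was 1.298 (SE 1.06, edgeR adjusted p = 0.99998), and ranged from 0.98 to 1.66 on leaving out a library. CDS1 footprints were higher and its mRNA lower in both 360 min libraries than in either of 0 min, and the log2 difference in TE was 1.32 (SE 0.732, edgeR adjusted p = 0.861).

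DGKQ met the condition in both comparisons of 360 min, which share the 360 min libraries and are not independent. Its footprints came to 10.1 and 21.0 CPM in the 0 min libraries, 20.6 and 15.9 CPM in those of 60 min, and 23.8 and 26.2 CPM in those of 360 min. Its mRNA came to 20.6 and 23.3 CPM, then 32.3 and 24.05 CPM, then 16.8 and 12.4 CPM. The log2 difference in TE of 360 min was 1.25 from 0 min (SE 0.736, edgeR adjusted p = 0.862) and 1.35 from 60 min (SE 0.723, edgeR adjusted p = 0.948). On leaving out a library they ranged from 0.79 to 1.84 and from 1.07 to 1.60. These values rested on 6 to 28 counts per library.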

How the results depend on the processing

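No alternative called a member between times: of 803 member values with an adjusted p 0 passed, the lowest being 0.245, and another 28, all from DESeq2, had none. Over all transcripts, where the main count was 0, RPF calls between 0 and 60, 0 and 360, and 60 and 360 min numbered 1, 1 and 6 with DESeq2, 1, 2 and 7 with the replicate block, and 0 to 1, 0 to 1 and 0 to 75 on leaving out a library (75 without RPF 360 min replicate 1). With no filter on low counts, RPF calls numbered 1 between 0 and 60 min and 33 between 60 and 360 min, mRNA calls 17, 89 and 113, and TE calls 3, 38 and 22. DESeq2 called 21 in mRNA between 0 and 360 min, 62 in mRNA between 60 and 360 min, and 3 in TE between 60 and 360 min. An arm left with 1 library was assumed to vary like the other groups. Deviations of same-numbered libraries correlated at 0.36, 0.34 and 0.35 between RPF times and at −0.481, −0.149 and 0.404 between mRNA times, and the replicate block changed no member's call.

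The ratio was called for 3546 transcripts, for 1997 under the stricter minimum of 10 counts, and for 954, 1151 and 1259 at 0, 60 and 360 min alone, from fewer libraries. No member had 10 counts in every one of the 12 libraries, so that minimum gave no ratio or TE for any member. CDS1 kept its call in all 21 other alternatives (log2 2.28 to 3.59) and PITPNB in 20 of 21. PITPNM1 lost its call in 10 of 21, library totals alone among them (adjusted p = 0.0524), and PLD2 gained one in 5 of 21. Uncalled ratios changed sign: CDS2 with TMM over all 12 libraries (−0.043), at 0 min (−0.14) and at 360 min (−0.30), DGKQ at 360 min (0.74) and CDIPT at 60 min (−0.28). On leaving out a library they ranged from −0.23 to 0.43 for CDS2, −0.35 to 0.053 for DGKQ and −0.00219 to 0.56 for DGKE. The mRNA difference of PITPNB between 0 and 360 min ranged from −3.65 to 0.13. Beyond the fewer libraries or transcripts, the cause was not tested. TMM over all 12 libraries moved the median log2 ratio of all transcripts from 0.10 to −0.02. Library totals alone moved the median mRNA difference between 60 and 360 min from −0.04 to −0.28. Member counts went down to 7 per library in RPF and 2 in mRNA, which limits the precision in both assays.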
